A study of Mus musculus with 26 samples.

Results

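Nuclear receptors are transcription factors that bind small fat-soluble ligands, among them bile acids, fatty acids, sterols, steroid and thyroid hormones and retinoids, and many of them bind DNA as a dimer with an RXR. Without an activating ligand many receptors hold corepressors such as NCOR1, which bring histone deacetylases to chromatin, and with one they hold coactivators of the NCOA family. In liver they set the expression of enzymes and carriers of bile acid, lipid, glucose and drug metabolism. The genes examined were 42 rows, of 35976 in the deposited count table, whose symbols name nuclear receptors, the corepressor Ncor1, NCOA coactivators, and the aryl hydrocarbon receptor Ahr with its partner Arnt. They were chosen by name, with earlier results of these data known, and all 42 symbols were found in the table.

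The samples were liver tumours and control livers of mice, measured as bulk RNA in 26 libraries. Cyp1a2_CA tumours (10 libraries of 9 animals) carried Cyp1a2-CreERT2 with Ctnnb1(ex3)fl/+ and with Arid2fl/fl. In them a tamoxifen-dependent Cre, driven by a gene of hepatocytes around the central vein, acted on 1 Ctnnb1 allele that then makes stabilised beta-catenin and on both alleles of Arid2, a chromatin remodeller subunit. Gls2_CA tumours (9 libraries of 5 animals) had the same Ctnnb1 and Arid2 alleles with Gls2-CreERT2, driven by a gene of hepatocytes around the portal vein. Cyp1a2_C (1 library of 1 animal) carried Cyp1a2-CreERT2 and Ctnnb1(ex3)fl/+ with no Arid2 allele in its label. WT livers (6 libraries of 6 animals) came from wild-type mice that received Cre from an adeno-associated virus and ate normal chow for up to 12 months. Tamoxifen was given on postnatal day 28 and tumours formed over the following 6 to 12 months, and the age at collection and the hour of collection are not in the labels. Tumour mice were a C57BL/6J and Swiss Webster mix and WT mice were C57BL/6J. Strain, virus, tamoxifen and tumour genotype therefore changed together between tumours and WT and cannot be told apart. Counts of libraries from the same numbered animal were added together, so n counts animals.

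Libraries held 37051941 to 49254470 counts in Cyp1a2_CA, 36992043 to 42865787 in Gls2_CA, 41038144 in Cyp1a2_C and 13486530 to 16975288 in WT. Levels are given as CPM, the count scaled to the library total after adjustment by a TMM scaling factor. The Ttn values used for the cut below were scaled to the plain library total. Hepatocyte markers were present in every group: the sum of Alb, Apoa1, Ttr, Fgb and Ahsg had a median of 19222.6 CPM in Cyp1a2_CA, 17531.8 in Gls2_CA tumours and 79575.1 in WT livers, and was 651.9 in the Cyp1a2_C library. The genes of mitochondrial DNA took 1.95 to 3.89% of counts in Cyp1a2_CA, 1.81 to 6.73% in Gls2_CA and 8.9 to 11.1% in WT. In 4 libraries (animals CAB44 and CAB225 of Cyp1a2_CA, GAB235 of Gls2_CA, and the Cyp1a2_C animal) the muscle gene Ttn lay above 1000 CPM, and these libraries stand apart. The library labelled Cyp1a2_C had 42.5 CPM of Arid2, below the 60.1 CPM of the lowest WT library, and it held 113 CPM of Xist beside Y-linked transcripts, as 1 library of GAB229 did at 18.5 CPM. Summed markers of dividing cells lay between 94.2 and 891 CPM in Cyp1a2_CA, 80.4 and 355 CPM in Gls2_CA and 7.88 and 14.9 CPM in WT, those of endothelial cells between 169 and 276 CPM in Cyp1a2_CA, 169 and 265 CPM in Gls2_CA and 313 and 352 CPM in WT, and those of Kupffer cells between 45.0 and 209 CPM in Cyp1a2_CA, 101 and 199.5 CPM in Gls2_CA and 228 and 272 CPM in WT. In bulk tissue fewer cells of a type and less RNA per cell cannot be told apart. After tumour libraries were thinned at random to the depth of the median WT library, 49 of 51 results on tumours against WT kept their direction and call, and the exceptions, Nr1i2 and Nr1h4 in Cyp1a2_CA, are given below. The part of cell composition was not tested, and that of the libraries with high Ttn is shown where a value without them is given.

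More members were higher in tumours than in WT, and few were lower. Of the 42 members, 40 passed the filter on low counts, and Vdr and Hnf4g did not. In Cyp1a2_CA 26 of the 40 were higher than in WT and 2 were lower (edgeR quasi-likelihood test, Benjamini-Hochberg adjusted p under 0.05), where 38.3% of all 16841 genes tested were higher and 32.7% lower (70.9% in either direction). In Gls2_CA 25 of 40 were higher and 2 lower, where 39.2% of 14976 genes were higher and 34% lower (73.2% in either direction). The median log2 fold change over the members was 1.17 in Cyp1a2_CA and 1.10 in Gls2_CA, beside 0.17 and 0.14 over all genes. As the members were chosen with earlier results of these data known, these counts describe them and test no excess. The members have longer transcripts than most genes, with a median of 5179 exon bases against 4198 over the genes tested in Cyp1a2_CA. With an offset for exon length and GC content the counts became 18 higher and 7 lower in Cyp1a2_CA (31.9% and 34.9% of all genes, 66.8% in either direction) and 17 higher and 6 lower in Gls2_CA tumours (33.5% and 36.1%, 69.7% in either direction), and the members' medians became 0.62 and 0.41. Upper-quartile scaling gave 19 higher and 7 lower in Cyp1a2_CA (33.2% and 37.2% of all genes, 70.4% in either direction) and 21 higher and 5 lower in Gls2_CA tumours (34.2% and 39%, 73.2% in either direction), and it moved the median over all genes to -0.05 and -0.09. Without the animals with high Ttn the counts were 23 higher and 2 lower in Cyp1a2_CA (37.8% and 35.5% of all genes, 73.3% in either direction) and 24 higher and 2 lower in Gls2_CA tumours (40.4% and 38.1%, 78.5% in either direction).

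Every Cyp1a2_CA animal lay above every WT animal for 15 of the 40 members and below for 1, where this held for 23.4% and 20.8% of all genes. Every Gls2_CA animal lay above every WT animal for 14 and below for 1, where it held for 29.9% and 26%. Both comparisons use the same WT animals, so their calls are not independent of each other. The members called higher in each were Arnt, Nr1i2, Nr1i3, Ppara, Pparg, Nr1h2, Nr1h3, Rora, Nr3c1, Nr3c2, Esr1, Thrb, Esrrg, Rara, Rarb, Rarg, Nr2c1, Nr2c2, Nr2f1, Nr4a1, Nr4a2, Nr6a1, Ncor1, Ncoa1 and Ncoa2. Nr1d2 was called lower in each. Nr2f6 was called higher in Cyp1a2_CA alone, Nr0b2 lower in Cyp1a2_CA alone and Rxrg lower in Gls2_CA alone, and whether the tumour groups differ for these 3 was tested below. The remaining 11, Ahr, Esrra, Ncoa3, Nr1d1, Nr1h4, Nr2f2, Nr5a2, Ppard, Rxra, Rxrb and Thra, did not pass in either comparison.

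**Figure D1:**
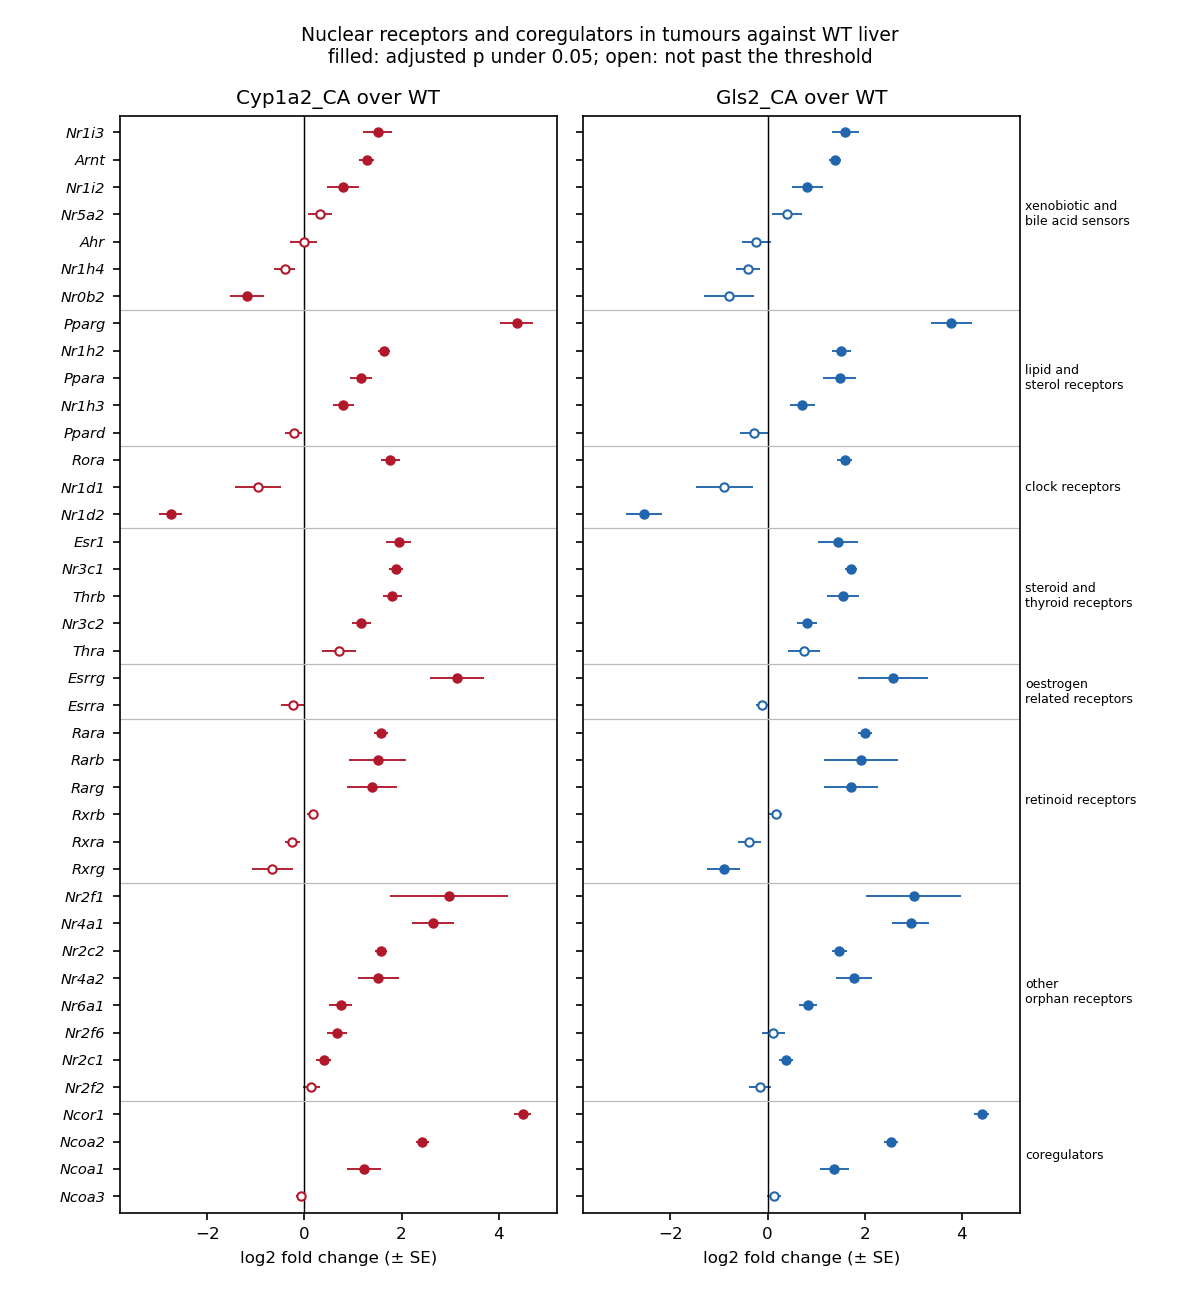
Log2 fold change over WT with its standard error for the 40 members tested, Cyp1a2_CA in the left panel and Gls2_CA in the right, grouped by role with filled points where the adjusted p was under 0.05. Ncor1 at 4.50 and 4.41 lies at the right end of both panels and Nr1d2 at -2.76 and -2.55 at the left end.

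The corepressor Ncor1 and the coactivators Ncoa1 and Ncoa2 were higher in both tumour groups, and Ncoa3 did not pass in either. Ncor1 (chromosome 11, 62316426 to 62458541, minus strand, mm10) encodes the platform that ties unliganded receptors and the REV-ERB proteins to the deacetylase HDAC3. It lay between 4078 and 7910 CPM in Cyp1a2_CA, with a median of 5925. The 5 Gls2_CA animals had 6368, 5701, 5339, 6110 and 5534 CPM. WT livers lay between 238 and 272 CPM, with a median of 260. The lowest tumour animal was thus far above the highest WT animal, and the libraries of high Ttn were not apart from the others for this gene. The log2 fold change was 4.50 in Cyp1a2_CA (SE 0.175, adjusted p = 1.9e-11) and 4.41 in Gls2_CA tumours (SE 0.16, adjusted p = 7.3e-09). With the length and GC offset it was 3.25 and 3.13. Per kilobase of exon Ncor1 had the highest mean level of all members in both tumour groups, at 476 CPM per kb in Cyp1a2_CA and 454 in Gls2_CA, and was number 6 among the members in WT at 20.0 CPM per kb. The 300 bases around its upstream start (chr11:62457283-62457582, minus strand, RefSeq, GRCm38.p6) are shown because this gene changed most of the members. They have 72.3% G and C and hold neither the E-box CACGTG, which CLOCK and BMAL1 bind, nor the receptor hexamer AGGTCA on either strand. The window of its downstream start (chr11:62438466-62438765), not shown, has 38.3% G and C and also holds neither.
Ncor1: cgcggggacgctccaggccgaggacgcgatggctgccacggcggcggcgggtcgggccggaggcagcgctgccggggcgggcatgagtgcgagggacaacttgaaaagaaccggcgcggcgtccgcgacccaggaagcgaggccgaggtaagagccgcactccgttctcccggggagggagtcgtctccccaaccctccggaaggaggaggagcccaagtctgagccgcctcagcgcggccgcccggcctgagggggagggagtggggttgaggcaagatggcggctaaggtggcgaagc

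Ncoa2, a p160 coactivator that also goes by TIF2 or GRIP1, had 334 to 576 CPM in Cyp1a2_CA with a median of 445. Its values in the Gls2_CA animals were 477, 481, 318, 567 and 580 CPM, against 73.3 to 83.0 CPM in WT. No tumour animal overlapped the WT range. The log2 fold change was 2.43 in Cyp1a2_CA (adjusted p = 2.5e-10) and 2.54 in Gls2_CA tumours (adjusted p = 5.1e-08), and 1.00 and 1.08 with the length and GC offset. Ncoa1, the p160 coactivator SRC-1, averaged 89.8 ± 37.6 CPM in Cyp1a2_CA (SD, n = 9), 98.6 ± 58.7 in Gls2_CA tumours (n = 5) and 36.5 ± 1.95 in WT (n = 6). The Cyp1a2_CA animal CAB145 had 11.6 CPM of Ncoa1, below every WT animal, while the other 8 lay above them. Ncoa3, whose protein SRC-3 is the remaining p160 coactivator, averaged 53.0 ± 4.86 CPM in Cyp1a2_CA, 61.0 ± 8.81 in Gls2_CA tumours and 52.8 ± 6.66 in WT livers.

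Of 20 other coregulator genes taken from a list, 16 were higher and 1 lower in Cyp1a2_CA (median log2 fold change 1.35), where 38.3% of all genes were higher and 32.7% lower. In Gls2_CA tumours 13 of 19 tested were higher and 2 lower (median 1.21), where 39.2% of all genes were higher and 34% lower. This list too was chosen with earlier results of these data known, so its counts are a description. The part of transcript length in these counts was not tested. Lcor, a ligand-dependent corepressor, rose by 2.14 in Cyp1a2_CA (adjusted p = 1.4e-08) and 2.09 in Gls2_CA tumours (adjusted p = 3.2e-08) on the log2 scale. Ncoa6, a coactivator that works with histone methyltransferases, rose by 1.56 in Cyp1a2_CA (adjusted p = 3.3e-09). Ppargc1a, the coactivator PGC-1 alpha of mitochondrial and gluconeogenic genes, rose by 2.86 in Gls2_CA tumours (adjusted p = 2.0e-08). Genes were named by smallest p within each comparison, so a value given for 1 group alone shows no difference between the groups. Of the 20 genes, 0 were higher and 0 lower in Cyp1a2_CA against Gls2_CA.

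Among the sensors of xenobiotics and bile acids, the drug receptors CAR and PXR and the dimer partner Arnt were higher in both tumour groups, the repressor SHP was lower in Cyp1a2_CA, and FXR, LRH-1 and AHR did not pass. Nr1i3 (chromosome 1, 171213970 to 171220701) encodes CAR, which induces cytochromes of the 2B family in response to drugs. It lay between 98.6 and 417 CPM in Cyp1a2_CA with a median of 267. The Gls2_CA animals had 312, 272, 124, 269 and 461 CPM. WT livers had 63.1 to 109 CPM with a median of 88.8. Of the tumours, CAB170 at 98.6 CPM alone lay within the WT range. The change was 1.51 on the log2 scale in Cyp1a2_CA (SE 0.301, adjusted p = 0.00034) and 1.60 in Gls2_CA tumours (SE 0.271, adjusted p = 0.00021). On the opposite strand Tomm40l overlaps 74.9% of the exon bases of Nr1i3, and the strand setting of the counting is not given in the sources used here. Tomm40l itself was lower, with log2 fold changes of -1.24 (adjusted p = 0.00021) and -0.98 (adjusted p = 0.0053).

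Nr1i2 encodes PXR, the receptor of bile acids and many drugs that induces Cyp3a genes. It had 43.3 to 245 CPM in Cyp1a2_CA with a median of 76.8, and 141, 142, 25.0, 117 and 105 CPM in the Gls2_CA animals. In WT it had 46.2 to 68.0 CPM with a median of 52.5. The 3 animals with high Ttn lay below every WT animal and the other 11 above. On the log2 scale the change was 0.79 in Cyp1a2_CA (adjusted p = 0.044) and 0.82 in Gls2_CA tumours (adjusted p = 0.038). These calls are weak: they were lost with upper-quartile scaling, the Cyp1a2_CA call was lost with thinned counts (0.69, adjusted p = 0.065), and the adjusted p lay between 0.02 and 0.085 in Cyp1a2_CA and between 8.9e-06 and 0.091 in Gls2_CA when single animals were left out. The leave-outs that lost the call were CAB145, CAB52, CAB228 and each WT animal in Cyp1a2_CA, and GAB18, GAB229, GAB242, GAB294 and every WT animal but WT_Cre-BL2 in Gls2_CA.

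Nr0b2 (chromosome 4, 133553376 to 133556536) encodes SHP, a receptor without a DNA-binding domain that FXR induces and that represses bile acid synthesis. It had 6.45 to 25.4 CPM in Cyp1a2_CA with a median of 7.25. Across the 5 Gls2_CA animals it had 12.5, 33.4, 4.06, 7.41 and 10.3 CPM, and WT livers 6.96 to 33.7 CPM with a median of 19.2. The groups overlapped, and 3 of 9 Cyp1a2_CA animals and 1 of 5 Gls2_CA animals lay below the whole WT range. Its log2 fold change was -1.19 in Cyp1a2_CA (SE 0.348, adjusted p = 0.0064) and -0.79 in Gls2_CA tumours (SE 0.515, adjusted p = 0.18). Without GAB229, the Gls2_CA animal with 33.4 CPM, the Gls2_CA value was -1.44 (adjusted p = 0.012). Nr1h4, the bile acid receptor FXR, averaged 140 ± 51.8 CPM in Cyp1a2_CA, 143 ± 55.8 in Gls2_CA tumours and 176 ± 10.3 in WT livers. Its log2 fold change was -0.41 in both (adjusted p = 0.097 in Cyp1a2_CA and 0.16 in Gls2_CA), it passed in Cyp1a2_CA without CAB26 (-0.55, adjusted p = 0.017) and with thinned counts (-0.50, adjusted p = 0.043), and with the length and GC offset it was -0.07 in Cyp1a2_CA and 0.03 in Gls2_CA. The windows of Nr1i3 (chr1:171213720-171214019, plus strand) and Nr0b2 (chr4:133553126-133553425, plus strand) are shown because they are the receptors of drugs and bile acids whose starts hold an E-box, in capitals.
Nr1i3: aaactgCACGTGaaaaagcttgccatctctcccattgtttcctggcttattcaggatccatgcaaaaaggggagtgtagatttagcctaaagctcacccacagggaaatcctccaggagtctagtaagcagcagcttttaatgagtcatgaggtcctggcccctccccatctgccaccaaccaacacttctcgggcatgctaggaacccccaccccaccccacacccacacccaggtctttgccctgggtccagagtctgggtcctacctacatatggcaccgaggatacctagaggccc
Nr0b2: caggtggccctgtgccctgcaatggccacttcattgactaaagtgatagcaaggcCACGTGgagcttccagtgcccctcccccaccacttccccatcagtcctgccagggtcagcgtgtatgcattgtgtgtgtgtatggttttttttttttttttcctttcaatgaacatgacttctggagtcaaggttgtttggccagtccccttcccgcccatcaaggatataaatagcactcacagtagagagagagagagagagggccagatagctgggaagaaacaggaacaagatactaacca

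Ahr, the receptor of dioxins and tryptophan metabolites, had 27.5 to 142 CPM in Cyp1a2_CA with a median of 104 and 78.9, 63.5, 26.3, 126 and 107 CPM in the Gls2_CA animals. WT livers had 66.9 to 108 CPM with a median of 89.8. On the log2 scale it differed by -0.01 in Cyp1a2_CA (adjusted p = 0.97) and -0.23 in Gls2_CA tumours (adjusted p = 0.5). Its sign turned in several alternative fits, among them the fit without the animals with high Ttn, where the Cyp1a2_CA value was 0.22. Its partner Arnt averaged 122 ± 26.3 CPM in Cyp1a2_CA, 133 ± 21.6 in Gls2_CA tumours and 47.7 ± 5.72 in WT livers, with every tumour animal above every WT animal. Nr5a2, the receptor LRH-1 that drives Cyp8b1 and Cyp7a1, averaged 103 ± 40.2 CPM in Cyp1a2_CA, 111 ± 47.5 in Gls2_CA tumours and 77.5 ± 16.9 in WT livers and was not called. Vdr, the vitamin D receptor, had no count in WT, which allows up to 0.0319 CPM (3 counts over the group), 27 counts over the Cyp1a2_CA animals and 13 over the Gls2_CA animals.

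Known targets of these receptors moved in both directions. For these and all later gene lists, the shares over all genes were 38.3% higher and 32.7% lower in Cyp1a2_CA. In Gls2_CA they were 39.2% and 34%. Of 6 FXR and SHP targets tested, 1 was higher and 3 lower in each tumour group (medians -0.97 in Cyp1a2_CA and -0.90 in Gls2_CA). The list mixes genes of bile acid synthesis, which SHP represses, with other genes, so its median gives no direction of receptor output. The higher gene was Abcb4, at 0.922 in Cyp1a2_CA and 1.182 in Gls2_CA on the log2 scale. Abcb11 (-0.175 and -0.241) and Slc51b (-0.287 and 1.634) were not called in either group. Cyp8b1, the sterol hydroxylase that makes cholic acid, averaged 14.4 ± 10.6 CPM in Cyp1a2_CA and 8.31 ± 6.12 in Gls2_CA, against 121 ± 32.1 in WT (log2 fold changes -3.14 and -3.97, adjusted p = 4.7e-05 and 2.6e-05). Cyp7a1, which starts bile acid synthesis, fell by 1.66 in Cyp1a2_CA (adjusted p = 0.0052) and 1.55 in Gls2_CA tumours (adjusted p = 0.0028) on the log2 scale. Slc10a1, the bile acid uptake carrier of hepatocytes, fell by 1.99 in Cyp1a2_CA (adjusted p = 1.9e-05) and 2.60 in Gls2_CA tumours (adjusted p = 5.1e-06). Of 9 CAR and PXR targets tested, 2 were higher and 4 lower in Cyp1a2_CA (median -0.86) and 2 higher and 3 lower in Gls2_CA tumours (median -0.47). Alas1, which limits haem synthesis, fell by 3.43 in Cyp1a2_CA (adjusted p = 6.5e-07) and 3.18 in Gls2_CA tumours (adjusted p = 4.1e-05). Cyp2b10, a defining CAR target, was at or below 0.357 CPM in every Cyp1a2_CA animal, 0.222 in every Gls2_CA animal and 1.16 in every WT animal. Of 5 AHR targets tested, 2 were higher and 2 lower in each group. Tiparp, a repressor of AHR, fell by 1.91 in Cyp1a2_CA (adjusted p = 2.3e-06) and 1.84 in Gls2_CA tumours (adjusted p = 1.4e-05), and Nqo1, a quinone reductase that NRF2 also induces, rose by 1.56 (adjusted p = 0.022) and 2.21 (adjusted p = 0.0013).

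The receptors of fatty acids and sterols were higher in both tumour groups except Ppard. Pparg (chromosome 6, 115360951 to 115490399), the receptor that drives fat storage and adipocyte formation, is low in normal liver. It lay between 29.3 and 101 CPM in Cyp1a2_CA with a median of 81.5. The Gls2_CA animals had 97.5, 45.6, 11.5, 46.1 and 49.2 CPM, and WT livers 2.15 to 4.13 CPM with a median of 3.51. Every tumour animal lay above every WT animal. The 3 Cyp1a2_CA and Gls2_CA animals with high Ttn were the lowest of these groups at 11.5 to 29.5 CPM, and the Cyp1a2_C animal had 7.47 CPM. Pparg changed by 4.37 (log2) in Cyp1a2_CA (SE 0.338, adjusted p = 1.4e-08) and 3.79 in Gls2_CA tumours (SE 0.415, adjusted p = 6.5e-06), and no alternative fit ended either call. Of the 3 start windows of Pparg, those at chr6:115360894-115361193 and chr6:115362099-115362398 (plus strand) hold the hexamer AGGTCA, in capitals, and the second is shown as an example of it in a gene that rose.
Pparg: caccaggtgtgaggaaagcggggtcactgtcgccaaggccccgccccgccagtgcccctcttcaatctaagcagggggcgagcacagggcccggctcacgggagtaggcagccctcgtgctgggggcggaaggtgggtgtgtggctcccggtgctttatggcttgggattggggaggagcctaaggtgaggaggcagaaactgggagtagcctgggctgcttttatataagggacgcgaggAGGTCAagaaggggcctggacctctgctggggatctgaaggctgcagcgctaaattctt

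Ppara (chromosome 15, 85734983 to 85802819), the receptor that fatty acids activate in fasting, had 404 to 1332 CPM in Cyp1a2_CA with a median of 720. Gls2_CA animals showed 1394, 721, 240, 926 and 1435 CPM, and WT livers 273 to 348 CPM with a median of 317. All 9 Cyp1a2_CA animals and 4 of 5 Gls2_CA animals lay above WT, and GAB235, the Gls2_CA animal with high Ttn, lay below. Ppara changed by 1.16 (log2) in Cyp1a2_CA (SE 0.224, adjusted p = 0.00025) and 1.48 in Gls2_CA tumours (SE 0.341, adjusted p = 0.002). Nr1h2 and Nr1h3 encode the oxysterol receptors LXR beta and LXR alpha. Nr1h2 averaged 93.3 ± 15.3 CPM in Cyp1a2_CA, 87.2 ± 28.9 in Gls2_CA tumours and 28.5 ± 3.22 in WT livers with no overlap, and its log2 fold change in Cyp1a2_CA was 1.63 (adjusted p = 7.2e-09). Nr1h3 averaged 129 ± 47.7 CPM in Cyp1a2_CA, 124 ± 49.1 in Gls2_CA tumours and 70.2 ± 2.47 in WT livers, and 1 animal of each tumour group lay below WT. Ppard averaged 9.53 ± 2.65 CPM in Cyp1a2_CA, 9.24 ± 4.99 in Gls2_CA tumours and 10.5 ± 1.21 in WT livers.

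Of 12 PPARA targets 4 were higher and 3 lower in Cyp1a2_CA (median 0.54), and 3 higher and 2 lower in Gls2_CA tumours (median 0.83). Fgf21, a fasting hormone of liver, averaged 15.1 ± 9.96 CPM in Cyp1a2_CA and 26.6 ± 20.4 in Gls2_CA, against 0.399 ± 0.285 in WT (log2 fold changes 5.13 and 5.90, adjusted p = 3.1e-06 and 6.6e-05). Pdk4, which spares glucose by blocking pyruvate dehydrogenase, rose by 2.03 in Cyp1a2_CA (adjusted p = 0.00027) and 2.06 in Gls2_CA tumours (adjusted p = 0.0016). None of 8 LXR targets was higher, and 3 were lower in Cyp1a2_CA (median -0.70) and 6 in Gls2_CA tumours (median -1.0). The sterol exporter genes Abcg1 and Abcg5 fell by 1.70 and 2.31 in Cyp1a2_CA (adjusted p = 5.6e-08 and 4.0e-06) and by 1.11 and 1.74 in Gls2_CA tumours (adjusted p = 0.00069 and 0.0017). Mylip, whose protein degrades the LDL receptor, fell by 2.20 in Cyp1a2_CA (adjusted p = 4.1e-05) and 2.03 in Gls2_CA tumours (adjusted p = 3.8e-05). Abcg8 (0.647 in Cyp1a2_CA and 0.785 in Gls2_CA) and Lpcat3 (0.508 and 0.278) of the same list had positive values and were not called.

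**Figure D2:**
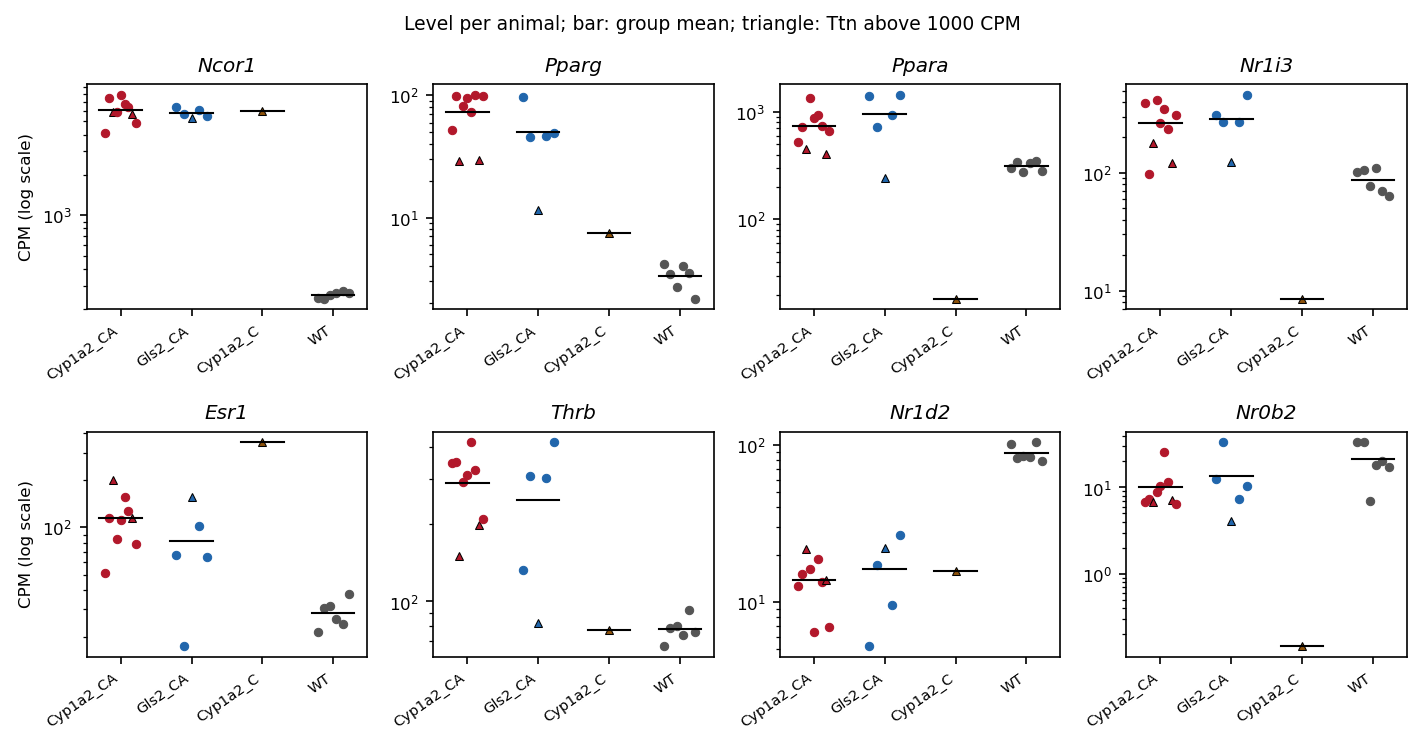
CPM on a log scale in each animal for 8 members in Cyp1a2_CA, Gls2_CA, Cyp1a2_C and WT, with bars at the group mean and triangles for animals with Ttn above 1000 CPM. For Ncor1 all tumour animals lie between 4078 and 7910 CPM and WT between 238 and 272, and for Nr1d2 all tumour animals lie below WT.

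The clock receptors moved in different directions. Nr1d2 (chromosome 14, 18204054 to 18239127), the haem receptor REV-ERB beta that represses Arntl through NCOR1, had 6.37 to 21.5 CPM in Cyp1a2_CA with a median of 13.7. The Gls2_CA animals had 5.19, 17.0, 22.1, 9.59 and 26.6 CPM, and WT livers 78.7 to 104 CPM with a median of 84.1. It was the member with every tumour animal of both groups below every WT animal. Nr1d2 changed by -2.76 (log2) in Cyp1a2_CA (SE 0.232, adjusted p = 3.4e-08) and -2.55 in Gls2_CA tumours (SE 0.365, adjusted p = 5.8e-05). Nr1d1, its relative REV-ERB alpha, had 5.79 to 47.0 CPM in Cyp1a2_CA with a median of 27.2, and 6.55, 42.2, 19.0, 7.41 and 45.1 CPM in the Gls2_CA animals. WT livers had 21.5 to 106 CPM with a median of 29.6. The log2 fold change of -0.95 in Cyp1a2_CA (adjusted p = 0.081) and -0.89 in Gls2_CA tumours (adjusted p = 0.19) did not pass, and the Cyp1a2_CA value passed without CAB26 (adjusted p = 0.037). Nr1d1 and Thra lie tail to tail on opposite strands and share 8.55% of the exon bases of Nr1d1. The window of Nr1d2 (chr14:18239057-18239356, minus strand) is shown because it holds the hexamer AGGTCA, in capitals, in the member that fell most.
Nr1d2: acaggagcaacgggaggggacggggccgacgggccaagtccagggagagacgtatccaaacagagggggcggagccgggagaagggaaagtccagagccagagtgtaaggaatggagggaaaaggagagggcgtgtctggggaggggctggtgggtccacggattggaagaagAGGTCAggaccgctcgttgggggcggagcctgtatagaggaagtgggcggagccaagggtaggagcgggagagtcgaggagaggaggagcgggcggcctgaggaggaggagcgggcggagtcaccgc

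Rora, the receptor ROR alpha that activates Arntl at the elements where REV-ERB proteins repress it, had 246 to 579 CPM in Cyp1a2_CA with a median of 311. In the Gls2_CA animals it was at 283, 409, 290.5, 262 and 318 CPM, and WT livers 74.9 to 112 CPM with a median of 97.0. No Cyp1a2_CA or Gls2_CA animal overlapped WT, while the Cyp1a2_C animal, at 90.9 CPM, lay within the WT range. The log2 fold change was 1.77 in Cyp1a2_CA (adjusted p = 5.5e-07) and 1.59 in Gls2_CA tumours (adjusted p = 2e-06), or 0.72 and 0.51 with the length and GC offset. Of 14 clock genes, 4 were higher and 8 lower in Cyp1a2_CA (median -0.89), and 3 higher and 6 lower in Gls2_CA tumours (median -0.12). Arntl, which encodes the clock activator BMAL1, averaged 160 ± 71.2 CPM in Cyp1a2_CA and 119 ± 60.5 in Gls2_CA, against 2.43 ± 1.04 in WT (log2 fold changes 5.96 and 5.52, adjusted p = 3.0e-09 and 2.1e-07). Clock rose by 2.70 in Cyp1a2_CA (adjusted p = 4.3e-10) and 2.71 in Gls2_CA tumours (adjusted p = 1.4e-07), and Bhlhe40, a repressor of E-box genes, fell by 2.70 (adjusted p = 5.5e-10) and 2.37 (adjusted p = 1.3e-07). These genes cycle through the day in liver. The part of the hour of collection, which is not in the labels, was not tested for them or for any other gene here.

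Of the 5 receptors of steroid and thyroid hormones, 4 were higher in both tumour groups and Thra did not pass, and their textbook targets included more lower than higher genes. Nr3c1, the glucocorticoid receptor, had 357 to 684 CPM in Cyp1a2_CA with a median of 574. The Gls2_CA animals had 457, 513, 377, 534 and 622 CPM, and WT livers 132 to 161 CPM with a median of 140.4. The groups did not overlap, and the log2 fold change was 1.88 in Cyp1a2_CA (SE 0.137, adjusted p = 6.3e-09) and 1.72 in Gls2_CA tumours (SE 0.131, adjusted p = 3.7e-07). Of 8 glucocorticoid receptor targets none was higher and 5 were lower in Cyp1a2_CA (median -2.18), and 2 were higher and 4 lower in Gls2_CA tumours (median -2.01). Fkbp5, a chaperone that glucocorticoids induce, averaged 13.96 ± 8.61 CPM in Cyp1a2_CA and 20.0 ± 10.2 in Gls2_CA, against 136 ± 28.6 in WT (log2 fold changes -3.36 and -2.85, adjusted p = 1.8e-07 and 5.0e-06). Pck1, which starts gluconeogenesis, fell by 4.53 in Cyp1a2_CA (adjusted p = 7.2e-07) and 3.89 in Gls2_CA tumours (adjusted p = 1.2e-05), and Tat, which breaks down tyrosine, by 2.57 (adjusted p = 0.00012) and 2.70 (adjusted p = 0.00025). Nr3c2, the mineralocorticoid receptor, averaged 50.5 ± 15.6 CPM in Cyp1a2_CA, 39.6 ± 11.3 in Gls2_CA tumours and 21.2 ± 4.0 in WT livers.

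Esr1 (chromosome 10, 4611593 to 5005614), the oestrogen receptor alpha, had 51.1 to 200 CPM in Cyp1a2_CA with a median of 114. Across the 5 Gls2_CA animals it had 66.2, 17.4, 156, 103 and 65.2 CPM, and WT livers 21.4 to 37.4 CPM with a median of 28.4. GAB229 at 17.4 CPM lay below every WT animal and the other tumour animals above. Esr1 changed by 1.94 (log2) in Cyp1a2_CA (SE 0.26, adjusted p = 6.1e-06) and 1.45 in Gls2_CA tumours (SE 0.421, adjusted p = 0.0081). With the offset for length and GC content the Gls2_CA value was 0.07 (adjusted p = 0.88) and the Cyp1a2_CA value 0.63. Thrb, the main thyroid hormone receptor of hepatocytes, had 151 to 417 CPM in Cyp1a2_CA with a median of 310.3, and 133, 308, 82.1, 303 and 419 CPM in the Gls2_CA animals, against 66.8 to 92.6 CPM in WT with a median of 77.3. Of the Cyp1a2_CA and Gls2_CA animals GAB235 alone lay within the WT range, as did the Cyp1a2_C animal at 77.1 CPM. Thrb changed by 1.81 (log2) in Cyp1a2_CA (adjusted p = 5.9e-07) and 1.56 in Gls2_CA tumours (adjusted p = 0.0011). Thra averaged 13.4 ± 7.81 CPM in Cyp1a2_CA, 13.8 ± 8.49 in Gls2_CA tumours and 7.85 ± 0.912 in WT livers and did not pass. Of 6 thyroid hormone targets, 1 was higher and 3 were lower in each group. Thrsp, a lipogenic gene, averaged 37.2 ± 27.2 CPM in Cyp1a2_CA and 39.3 ± 20.0 in Gls2_CA, against 1234 ± 272 in WT (log2 fold changes -5.13 and -5.08, adjusted p = 8.7e-07 and 1.9e-07). Dio1, which converts thyroxine to its active form, fell by 3.93 in Cyp1a2_CA (adjusted p = 9.3e-07) and 4.28 in Gls2_CA tumours (adjusted p = 9.4e-05), and Klf9, a transcription factor that thyroid hormone and glucocorticoids induce, by 1.91 (adjusted p = 3.2e-10) and 2.21 (adjusted p = 1.5e-07).

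The oestrogen-related receptors bind no known natural hormone and drive mitochondrial genes with PGC-1 coactivators. Esrrg had 6.504 to 61.5 CPM in Cyp1a2_CA with a median of 13.5. The Gls2_CA animals had 28.9, 0.331, 10.5, 24.3 and 11.01 CPM, and WT livers 1.35 to 4.06 CPM with a median of 2.12. GAB229 lay below every WT animal and the other 13 Cyp1a2_CA and Gls2_CA animals above, while the Cyp1a2_C animal, at 0.468 CPM, lay below. Esrrg changed by 3.14 (log2) in Cyp1a2_CA (SE 0.555, adjusted p = 0.00011) and 2.58 in Gls2_CA tumours (SE 0.728, adjusted p = 0.007), and the Gls2_CA value was 2.06 (adjusted p = 0.16) with limma-voom and the animal as a random effect. Esrra averaged 22.6 ± 10.9 CPM in Cyp1a2_CA, 25.0 ± 2.08 in Gls2_CA tumours and 25.3 ± 3.68 in WT. All 5 genes of the list of mitochondrial targets were lower in each group (medians -1.94 in Cyp1a2_CA and -1.51 in Gls2_CA). Among them Cycs, the gene of cytochrome c, fell by 2.19 (adjusted p = 1.7e-09) in Cyp1a2_CA and 2.11 in Gls2_CA tumours (adjusted p = 1.5e-05), Atp5b by 2.32 (adjusted p = 1.6e-08) and 2.18 (adjusted p = 9.5e-07), and Cox5b by 1.66 (adjusted p = 3.1e-08) and 1.51 (adjusted p = 2.2e-05). The mitochondrial share of counts was lower in tumours as well, as given above.

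The retinoic acid receptors were higher in both tumour groups, and their RXR partners were not. Rara had 66.5 to 116 CPM in Cyp1a2_CA with a median of 89.0. Gls2_CA animals showed 140, 143, 118, 98.7 and 119 CPM, and WT livers 24.3 to 34.3 CPM with a median of 28.4. No tumour animal overlapped WT, and the log2 fold change was 1.58 in Cyp1a2_CA (SE 0.142, adjusted p = 6.9e-08) and 2.01 in Gls2_CA tumours (SE 0.14, adjusted p = 1.8e-07). Rarb and Rarg were high in few animals. Rarb had 36.3 to 73.3 CPM in the 3 animals with high Ttn and 1.998 to 11.01 CPM in the other 11, against 3.73 to 6.52 in WT, and its log2 fold change in Gls2_CA of 1.92 (adjusted p = 0.039) was 0.04 (adjusted p = 0.88) without GAB235. It was also lost when any single WT animal was left out, with adjusted p-values over all such fits between 0.02 and 0.88, and Top2b overlaps 34.1% of its exon bases on the opposite strand. Rarg had 29.2 to 53.9 CPM in the animals with high Ttn and 3.48 to 25.1 CPM in the others, against 4.73 to 6.52 in WT. Its log2 fold change in Gls2_CA was 1.72 (adjusted p = 0.015), and without GAB235 0.75 (adjusted p = 0.048).

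Rxra, the main RXR of hepatocytes, averaged 347 ± 86.9 CPM in Cyp1a2_CA, 324 ± 131 in Gls2_CA tumours and 391 ± 16.1 in WT livers. Rxrb averaged 19.4 ± 2.40 CPM in Cyp1a2_CA, 19.6 ± 2.61 in Gls2_CA tumours and 16.4 ± 2.10 in WT livers, and neither was called. Rxrg was low, at 2.31, 1.503, 0.48, 1.30 and 1.90 CPM in the Gls2_CA animals against 1.86 to 3.67 CPM in WT. Its log2 fold change in Gls2_CA was -0.91 (adjusted p = 0.032), and this call was lost in 5 of 11 leave-outs, those of GAB229, GAB242, WT_Cre-BL1, WT_Cre-BL2 and WT_Cre-BL3 (adjusted p up to 0.076). Of the retinoic acid targets 2 were higher and 2 lower among 6 tested in Cyp1a2_CA, and 1 higher and 1 lower among 5 in Gls2_CA. Dhrs3, which turns retinal back to retinol, rose by 1.60 in both groups (adjusted p = 2.8e-06 in Cyp1a2_CA and 3.2e-05 in Gls2_CA). Stra6, the cell-surface receptor of the retinol-binding protein, had no count in WT and 0 to 428 CPM in Cyp1a2_CA and 0 to 1643 CPM in Gls2_CA.

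Among the other orphan receptors, Nr4a1, Nr4a2, Nr2c1, Nr2c2 and Nr6a1 were higher in both tumour groups beside the uneven Nr2f1. Nr4a1, the immediate early receptor NUR77, had 3.72 to 22.4 CPM in Cyp1a2_CA with a median of 6.13. The Gls2_CA animals had 10.2, 5.40, 5.33, 17.7 and 9.69 CPM, and WT livers 0.803 to 1.96 CPM with a median of 0.857. The groups did not overlap, and the log2 fold change was 2.64 in Cyp1a2_CA (SE 0.433, adjusted p = 5.2e-05) and 2.95 in Gls2_CA tumours (SE 0.379, adjusted p = 2.4e-05). Nr4a2, its relative NURR1, averaged 2.39 ± 1.60 CPM in Cyp1a2_CA, 2.85 ± 1.41 in Gls2_CA tumours and 0.795 ± 0.321 in WT livers (log2 fold changes 1.52 and 1.77, adjusted p = 0.0046 and 0.001). Nr2f1, the receptor COUP-TFI, had 30.9 to 34.9 CPM in the 3 animals with high Ttn and 0 to 2.67 CPM in the other 11, against 0.46 to 1.20 CPM in WT. Its log2 fold changes of 2.97 in Cyp1a2_CA (adjusted p = 0.04) and 3.01 in Gls2_CA tumours (adjusted p = 0.016) became 0.10 (adjusted p = 0.89) and 0.47 (adjusted p = 0.23) without those animals. The Cyp1a2_CA call was also lost without CAB44, CAB225 or any 1 WT animal (adjusted p up to 0.087).

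Nr2c2, the testicular receptor TR4, averaged 101 ± 16.0 CPM in Cyp1a2_CA, 94.3 ± 21.4 in Gls2_CA tumours and 32.2 ± 1.25 in WT livers with no overlap. Its log2 fold change in Cyp1a2_CA was 1.57 (adjusted p = 1.6e-08), which became 0.18 (adjusted p = 0.27) with the length and GC offset. Mrps25 overlaps 30.7% of its exon bases on the opposite strand. Nr2c1 averaged 26.4 ± 5.80 CPM in Cyp1a2_CA, 26.3 ± 4.11 in Gls2_CA tumours and 19.0 ± 2.40 in WT livers, and Nr6a1 averaged 17.0 ± 7.48 in Cyp1a2_CA, 18.3 ± 4.50 in Gls2_CA and 9.62 ± 1.74 in WT. Nr2f6, a receptor that represses immune genes in T cells, averaged 52.2 ± 17.7 CPM in Cyp1a2_CA, 36.2 ± 14.4 in Gls2_CA tumours and 31.0 ± 4.02 in WT livers, and Ocel1 overlaps 54.4% of its exon bases on the opposite strand. Nr2f2, the receptor COUP-TFII of veins and stroma, averaged 51.4 ± 14.1 CPM in Cyp1a2_CA, 43.0 ± 15.7 in Gls2_CA tumours and 44.3 ± 7.40 in WT livers. Hnf4g was below 1 CPM in every animal. Of 13 further nuclear receptor genes, 6 were tested in Cyp1a2_CA, with 3 higher and 1 lower, and 5 in Gls2_CA, with 2 higher and none lower.

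Between the tumour groups, Cyp1a2_CA against Gls2_CA, no member passed the threshold. This does not show equal levels, as standard errors were wide for some members, such as 1.36 for Nr2f1. Of 17129 genes tested with edgeR, 0 passed (0% higher and 0% lower), with 554 genes (3.23%) and 1 member at an unadjusted p under 0.05. The other tools passed 19 genes (DESeq2) and 10 genes (limma-voom with quality weights). That member was Rara, whose log2 difference was -0.43 (SE 0.15). Log2 differences of the 40 members lay between -0.43 and 0.57. Ncor1 differed by 0.08 (SE 0.165), Esr1 by 0.50 (SE 0.416), Ppara by -0.33 (SE 0.359), Nr1i3 by -0.11 (SE 0.353), Nr0b2 by -0.41 (SE 0.446) and Nr1d1 by -0.08 (SE 0.566). Nr2f6 differed by 0.55 (SE 0.297, unadjusted p = 0.085) and Rxrg by 0.23 (SE 0.511). Nr1h4, Nr1i2 and Ahr differed by -0.01 (SE 0.315), -0.04 (SE 0.442) and 0.21 (SE 0.385). Every adjusted p was 1 in this fit. No member had every Cyp1a2_CA animal above or below every Gls2_CA animal, where 0.0409% and 0.0467% of all genes did.

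Within the tumours the members varied more between animals than in WT. The standard deviation of log2(CPM + 0.5) had a median over the 40 members of 0.457 in the 11 tumour animals without high Ttn and 0.196 in the 6 WT animals. It was not computed over all genes, so it is not a trait shown for the members alone. The tumour animals pool both tumour groups on a mixed strain, and WT mice were C57BL/6J. The part of group and strain was not tested. Ncoa3, Rxrb, Ncoa2 and Nr3c1 were the most even tested members in the tumours, with standard deviations of 0.143, 0.17, 0.182 and 0.187, and Esrrg, Nr1d1, Rarg and Esr1 the least even, at 1.70, 1.19, 0.86 and 0.851. Libraries that share an animal number also differed. The highest library was 1.14 times the lowest in CAB28 (median over members), 1.47 times in GAB242 and 1.53 times in GAB294, beside 2.83 times between the 11 animals. Nr1i3 had 418, 290.0 and 80.2 CPM in the S, M and L libraries of GAB242, letters that the labels do not explain. Esr1 had 108, 6.02 and 72.0 CPM in the S, M1 and M2 libraries of GAB294, so that 1 library of an animal lay below WT and the others above.

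The 3 animals with high Ttn differed from the other 11 tumour animals for 13 members. They lay above all 11 for Thra, Rarb, Rarg, Nr2f1 and Ncoa1, which is 5 of 40 members, where 12.1% of 16849 genes did so. They lay below all 11 for Nr1i2, Nr5a2, Ahr, Ppara, Pparg, Nr1h3, Rxra and Ncoa2, which is 8 of 40, where 11.2% of genes did. These animals were picked by their Ttn level, so the values are a description. Ppara had 240 to 451 CPM in the animals with high Ttn and 521 to 1435 CPM in the others. Nr5a2 had 31.7 to 50.8 CPM in the animals with high Ttn and 85.5 to 174 CPM in the others. Rxra had 136 to 233 CPM in the animals with high Ttn and 273 to 488 CPM in the others. Thra had 24.6 to 28.1 CPM in the animals with high Ttn and 4.995 to 16.1 CPM in the others. The summed muscle markers include Ttn itself. They lay between 20310.5 and 29975.8 CPM in the animals with high Ttn and between 2.44 and 95.7 CPM in the others. This gap follows from picking the animals by Ttn and gives no separate sign of muscle. Ckm, a defining gene of mature muscle, was at 0 in every Cyp1a2_CA animal, CAB44 and CAB225 included, and had 2 counts in GAB235. The part of other cells in these differences was not tested. The summed hepatocyte markers lay between 4571 and 13251.7 CPM in the animals with high Ttn and between 15920.6 and 91927 CPM in the others, and the summed neuron markers between 161.5 and 204 CPM in the animals with high Ttn and between 34.7 and 100.1 CPM in the others.

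**Figure D3:**
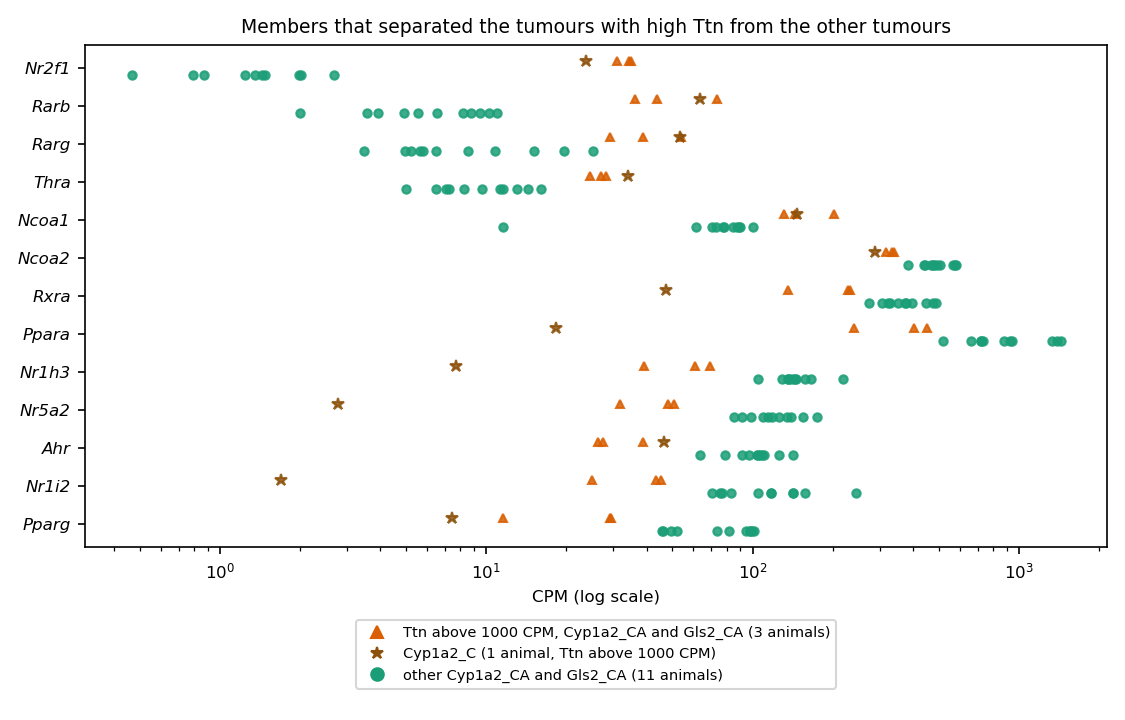
CPM on a log scale, 1 row for each of the 13 members, in the 3 tumour animals with Ttn above 1000 CPM, the Cyp1a2_C animal and the other 11 tumour animals. Nr2f1 shows the widest gap, with 30.9 to 34.9 CPM against at most 2.67.

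The Cyp1a2_C library has no replicate, so its values are given without a test, with exact Poisson intervals at 95% that cover counting error only. It had Ncor1 at 5939 CPM, within the range of the other tumours. Receptors of hepatocyte metabolism were at their lowest in it: Ppara at 18.2 CPM (17.1 to 19.4), Nr1i3 at 8.47, Nr1h4 at 5.69, Nr1i2 at 1.69 and Nr0b2 at 0.144 CPM, from 8 counts. Hepatocyte markers were lowest there as well. Esr1 at 352 CPM and Thra at 34.2 CPM lay above every other animal. Vdr had 105 counts or 1.89 CPM (1.55 to 2.29), against at most 0.143 CPM elsewhere.

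Levels of a receptor and of a known target were compared across the 11 tumour animals without high Ttn for 10 pairs, on log2(CPM + 0.5). Ppara and Cyp4a14, a fatty acid hydroxylase gene that PPAR alpha induces, rose and fell together, with Pearson's r = 0.85 (permutation p = 0.0011, adjusted p = 0.0055) and Spearman's rho = 0.77 (permutation p = 0.0076, adjusted p = 0.038). Without the 2 animals farthest from the median of Ppara r was 0.87 (n = 9). Nr1d1 and Arntl, which the REV-ERB proteins repress, went in opposite directions, with r = -0.83 (permutation p = 0.00082, adjusted p = 0.0055) and rho = -0.89 (permutation p = 0.00042, adjusted p = 0.0042), and r = -0.77 without the 2 farthest animals. In the 7 Cyp1a2_CA animals alone r was 0.86 for Ppara and Cyp4a14 (exact permutation p = 0.011, adjusted p = 0.11). For Nr1d1 and Arntl it was -0.79 there (exact permutation p = 0.027, adjusted p = 0.13). Spearman's rho in these 7 was 0.71 (exact permutation p = 0.088, adjusted p = 0.29) and -0.89 (exact permutation p = 0.012, adjusted p = 0.12). Without the 2 of them farthest from the median of the receptor, r was 0.65 and -0.42 (n = 5), given without a test. Gls2_CA alone has too few animals. The levels of a pair come from the same libraries and share their depth, whose part was not tested. Nr1d1 and Arntl also cycle through the day in liver. The part of the hour of collection in their correlation, or in that of any other pair, was not tested, as the labels do not give it. The other 8 pairs did not pass, with r between 0.04 and 0.51 and adjusted permutation p of 0.42 or above: Nr1i3 with Cyp2b10 (r = 0.51), Nr1h4 with Nr0b2 (0.45), Nr1h3 with Abcg5 (0.20), Thrb with Dio1 (0.20), Nr1i2 with Cyp3a11 (0.14), Ahr with Cyp1a1 (0.05), Nr1h4 with Abcb11 (0.04) and Nr3c1 with Tat (0.04). Cyp2b10 was at 0 in 6 of the 11 animals and at most 0.245 CPM in the others, so its pair holds too little signal to be read either way.

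**Figure D4:**
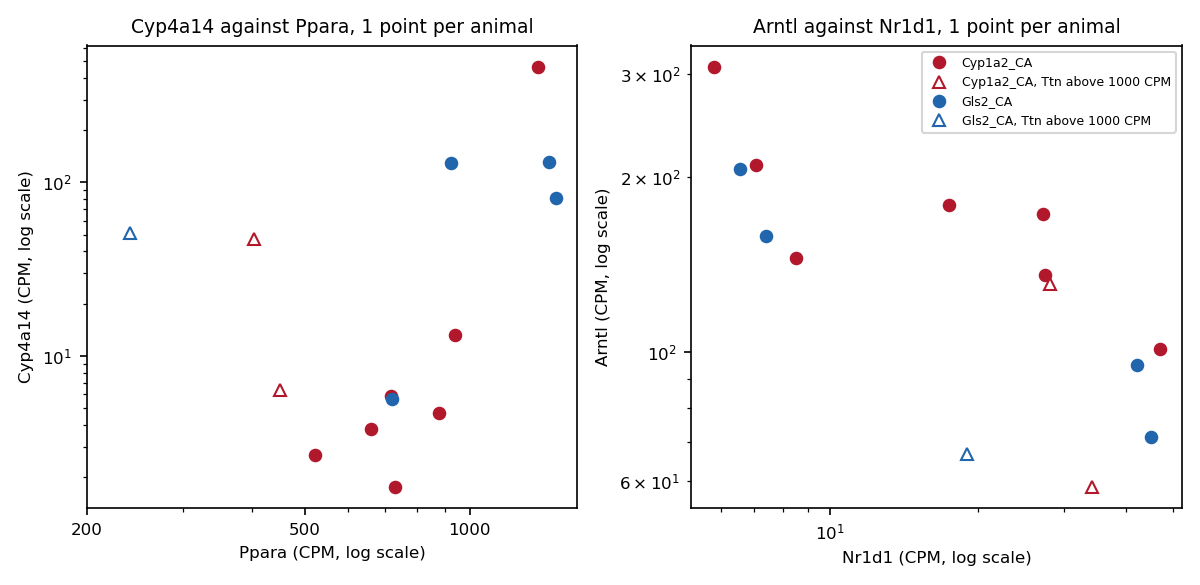
Cyp4a14 against Ppara (left) and Arntl against Nr1d1 (right) in CPM on log axes, 1 point for each tumour animal, with open triangles for the 3 animals with Ttn above 1000 CPM that the correlations leave out. Across the 11 filled points r is 0.85 on the left and -0.83 on the right.

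Start windows of 300 bases were found for 36 of the 42 members, 55 windows in all. The E-box CACGTG was in 5 of the 55 (9.09%) and in 7.15% of the 32851 windows of all genes. The hexamer AGGTCA, read on either strand, was in 11 (20%) and in 16.3% of all windows, and CTTTGAT, which TCF and LEF factors bind, was in 1 (1.82%, Nr2f2) and in 3.73%. These letters were counted on both strands. No file here measures binding or chromatin at these windows, and a window without a match says only that the letters are not in it.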

How the data were processed

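RNA came from frozen tumour pieces or liver, was isolated with TRIzol on columns including a DNase step, and libraries were prepared by Nugen Ovation chemistry, per the labels' protocols. The deposited table holds raw counts per gene symbol and library, made by the authors on mm10 per the submitters' processing notes; how reads were aligned and counted, and whether by strand, was not given in the sources used here. Counts of libraries sharing an animal number in their titles were summed. The 3 pairs of groups were each fitted separately in edgeR 4.0.16 (R 4.3.3): filterByExpr, TMM factors, robust quasi-likelihood test, Benjamini-Hochberg adjustment over all genes tested, threshold 0.05. CPM values use the TMM-scaled totals, except that the cut of 1000 CPM for Ttn used plain library totals. The fit was tested on simulated data. Whether replicates are separate cultures or litters is not labelled, but titles name separate animals. Depth was lower in WT than in tumours, which limits low genes there.

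Exon lengths, GC content and overlaps came from GENCODE M21, which matched 26772 of 35976 symbols (74.4%) and all 42 members. Correlations were computed with scipy 1.17.1 on log2(CPM + 0.5), with 100000 permutations, or all of them under 10 animals, two-sided. Intervals and floors of 3 counts cover counting error only. Start windows came from RefSeq (GRCm38.p6). Fold changes are printed for up to 14 called members in each direction whose mean reaches 1 CPM in the higher group, always for Nr0b2, Nr1h4, Nr1i2, Nr1i3, Ppara, Nr1d1, Ahr, Ncor1 and Esr1, and for up to 3 genes of each pathway list by smallest p; other values were added to these after they were seen. Members and lists were chosen with earlier results of these data known. Alternatives were other scalings and filters, libraries as replicates, 1 library per animal, 3 groups in 1 fit, DESeq2 1.42.0, limma 3.58.1 with quality weights or the animal as a random effect, a length and GC offset, thinned tumour counts, and leaving out animals. Some genes of the pathway lists are counted in their list but not reported here by name.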

Additional observations from a re-analysis of the deposited data

Results flagged for a closer look

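Of 120 sets of values (40 members in Cyp1a2_CA, Gls2_CA and WT), 15 held an animal far from the others of its group, and chance flags about 1 in 20 such sets. In Cyp1a2_CA there were 6. Animal CAB145 was highest for Esrra at 48.7 CPM (next 27.4), Nr4a1 at 22.4 CPM (next 8.08) and Nr6a1 at 35.3 CPM (next 20.8), and lowest for Nr2c2 at 62.6 CPM (next 95.7). CAB26 was highest for Nr0b2 at 25.4 CPM (next 11.6), and CAB52 lowest for Ncoa3 at 42 CPM (next 50). In Gls2_CA there were 5. GAB235, the animal with high Ttn, was highest for Rarb at 73.3 CPM (next 8.21), Nr2f1 at 34.9 CPM (next 2.67) and Ncoa1 at 203 CPM (next 78.2), and lowest for Nr1h3 at 39.1 CPM (next 136). GAB229 was highest for Nr0b2 at 33.4 CPM (next 12.5). In WT there were 4. WT_Cre-BL1 was highest for Nr1h2 at 34.7 CPM (next 28.5) and Nr1d1 at 106 CPM (next 39.8). WT_Cre-BL3 was highest for Nr3c1 at 161 CPM (next 141) and lowest for Nr2f1 at 0.46 CPM (next 1.03).

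The single Cyp1a2_C library, which enters no test, lay above every animal of the other groups for 4 members. It had Vdr at 1.89 CPM (next 0.143), Esr1 at 352 CPM (next 200), Thra at 34.2 CPM (next 28.1) and Nr4a2 at 6.84 CPM (next 5.78).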

How the results depend on the processing

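The number of members lower than WT depended on scaling. In Cyp1a2_CA it was 7 with upper-quartile factors, 4 with limma-voom and quality weights, 7 with the length and GC offset and 2 to 5 when single animals were left out (most without CAB145 or CAB26). In Gls2_CA it was 5 with upper-quartile factors, 6 with the offset and 1 to 3 in the leave-outs. Members higher than WT numbered 22 to 26 in Cyp1a2_CA and 21 to 25 in Gls2_CA in the leave-outs, with 11497 to 12004 and 10694 to 11879 genes past the threshold. Between Cyp1a2_CA and Gls2_CA, leave-outs gave 0 genes, every library as a replicate 6, DESeq2 19 and limma-voom with quality weights 10. In Cyp1a2_CA alone r was 0.86 for Ppara and Cyp4a14, -0.79 for Nr1d1 and Arntl, -0.04 for Thrb and Dio1 and -0.03 for Nr3c1 and Tat. Some small differences changed sign. Ahr in Cyp1a2_CA against WT was 0.04 with no filter, 0.02 with 1 library per animal, 0.06 with quality weights, 0.22 without high Ttn and -0.12 to 0.10 in the leave-outs (0.08 without CAB225, 0.01 without WT_Cre-BL1). Ahr in Gls2_CA against WT was 0.07 with every library and 0.05 with quality weights, and Nr1h4 0.03 with the offset. Between the tumour groups Nr0b2 was 0.04 with quality weights (leave-outs -0.71 to 0.25), Nr1h4 0.03 with the offset (-0.23 to 0.09, and 0.08 without CAB52), Nr1i2 0.06 with the offset (-0.32 to 0.09, 0.01 without CAB26 and 0.08 without GAB18), Nr1d1 0.39 with quality weights and 0.07 with the random effect (-0.33 to 0.26), Ahr -0.06 with every library (-0.02 to 0.43) and Nr1i3 -0.30 to 0.12 in the leave-outs. The cause was not tested. Of 63 results, 63 kept their call and direction with RLE factors, 54 with upper-quartile factors, 52 with quality weights and 50 with the offset. The random-effect fit could not be made for Cyp1a2_CA against WT, and DESeq2 gave no adjusted p for Nr2f1 and Rarb in Gls2_CA. No paired analysis was possible because replicate numbers name different animals in each group. Depth limits members near 1 CPM in WT.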
